A study of Homo sapiens with 4 samples.

Results

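The OAS family of human oligoadenylate synthetase genes, OAS1, OAS2, OAS3 and OASL, was described in fibroblasts before and after induction of the transcription factor FOXA2. The members were the rows of the deposited expression table that carry these 4 symbols, and each symbol had 1 row, so that 4 of 63651 rows were described. The genes were chosen with the contrast between the columns in view, and their differences are therefore given as a description, with no test. The cells were a clonal derivative of BJ-5ta, foreskin fibroblasts of human origin that telomerase keeps dividing, and carries FOXA2 under doxycycline control. The uninduced group has 2 samples labelled as receiving no treatment, and the induced group has 2 samples given 0.5 µg/ml doxycycline. Cells of both groups were grown in the same medium with serum, basic fibroblast growth factor, hygromycin B and puromycin. The labels also describe an overnight treatment with mimosine, a compound that halts the cell cycle in G1. They name neither the cultures that received it nor the length of induction, and the mark 4D in the header of the induced column is not explained in them. No sample given doxycycline without the transgene was used here, so the effects of the drug and of FOXA2 cannot be told apart.

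The table gives 1 FPKM value per gene for each group, that is fragments scaled to transcript length and sequencing depth, together with confidence bounds below and above it. The sources used here give neither the confidence level nor how the 2 samples of a group entered its column. No value per sample, SD or p can therefore be had, and the verbs rose and fell are kept for genes whose 2 intervals do not overlap. Of 14319 genes at 1 FPKM or more in at least 1 column, 104 rose and 65 fell. FOXA2 itself was at 4.82 FPKM uninduced (bounds 0.526 and 9.12) and 104 FPKM induced (50.2 and 158). Markers of the labelled cell type were present: all 8 of 8 fibroblast markers passed the filter, with summed levels of 4384 and 2809 FPKM. They did not move together: 2 were at least 2-fold higher induced on the log2(FPKM + 1) scale and 2 at least 2-fold lower. These shares were 9.2% and 6.03% over all kept genes, and 0 of the 8 markers rose or fell. Markers of other cells were low. The 8 leukocyte markers summed to 1.40 FPKM uninduced and 3.99 FPKM induced, with CD3E, MS4A1 and NKG7 listed at 0 in both columns. The 5 epithelial markers summed to 0.312 and 1.25 FPKM, and the 4 endothelial markers to 0.0456 and 0.0579 FPKM. Of 4 markers of plasmacytoid dendritic cells, CLEC4C and LILRA4 were listed at 0 in both columns, IL3RA was at 0.0529 and 0.0154 FPKM, and TCF4, which fibroblasts also express, was at 35.1 and 53.2 FPKM.

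OAS proteins are sensors of double-stranded RNA in the cytoplasm. On binding it, OAS1, OAS2 and OAS3 join ATP into short chains of adenylates with an unusual linkage, called 2-5A, a second messenger that sets off the breakdown of single-stranded RNA of virus and host. OASL has lost this synthetic activity, carries ubiquitin-like domains at its end, and is known to strengthen signalling by the RNA sensor RIG-I and to dampen the DNA sensor cGAS. The genes are classic targets of interferon: receptors of type I and type III interferons activate a complex that holds STAT2 and IRF9 and binds the interferon-stimulated response element (ISRE) in their promoters.

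OAS1, OAS3 and OAS2 lie side by side in this order on the forward strand of chromosome 12, and OASL lies apart from them on the reverse strand of the same chromosome, in the GENCODE release 29 annotation. The longest annotated coding sequence was 1242 bases for OAS1, 2178 bases for OAS2, 3261 bases for OAS3 and 1542 bases for OASL, in 6, 12, 16 and 6 exons. The proteins of the cluster are known to hold repeats of the OAS unit, fewest in OAS1 and most in OAS3. In the deposited table, which uses hg19, OAS1 (ENSG00000089127), OAS2 (ENSG00000111335) and OAS3 (ENSG00000111331) share 1 locus, chromosome 12, 113344582 to 113455556, a span of 110975 bases. OASL (ENSG00000135114) has a locus of its own, chromosome 12, 121458095 to 121477045, a span of 18951 bases. The cluster's locus is shared by RP1-71H24.1, at 0 and 0.128 FPKM, and RP1-71H24.4, listed at 0 in both columns. The libraries do not keep strand, so reads of overlapping genes on opposite strands cannot be told apart, and the assignment of reads that match several of these related genes is not described in those sources.

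The stretch upstream of the start site is shown for OAS1 and OAS3, the 2 of 4 members found in the RefSeq promoter table (build GRCh38.p14), because it holds the letters of the interferon response element. Capitals mark the ISRE core (GAAA, any 2 bases, GAAA) and a form with a shorter spacer, GAAANGAAA, which was added after the OAS1 sequence had been seen. The sequences are the 250 bases before the start, 5′ to 3′ on the forward strand, at chr12:112906712-112906961 for OAS1 and chr12:112938224-112938473 for OAS3.
OAS1: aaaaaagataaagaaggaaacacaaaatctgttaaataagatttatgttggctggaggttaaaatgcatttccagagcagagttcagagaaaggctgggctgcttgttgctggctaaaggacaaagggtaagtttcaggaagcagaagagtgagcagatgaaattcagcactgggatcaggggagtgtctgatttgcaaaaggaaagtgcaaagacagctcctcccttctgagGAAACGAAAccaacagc
OAS3: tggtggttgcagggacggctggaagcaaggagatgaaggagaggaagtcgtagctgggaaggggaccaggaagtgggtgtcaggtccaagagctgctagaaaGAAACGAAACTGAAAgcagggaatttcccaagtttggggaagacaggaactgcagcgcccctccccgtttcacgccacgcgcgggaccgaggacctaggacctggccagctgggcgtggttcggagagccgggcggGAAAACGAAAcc

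The windows of 300 bases, from 250 before to 50 after the start, were searched on both strands. The ISRE core had 2 matches in OAS3, at -143 to -134 and -12 to -3 with the last base before the start counted as -1, and 0 in OAS1. The form GAAANGAAA had 1 match in OAS1, at -17 to -9, and 1 in OAS3, at -148 to -140, which overlaps the first core match there. Both genes thus carry an ISRE-like stretch within 20 bases upstream of the annotated start. Of 35116 promoter windows of the same length, 3.57% held the ISRE core, 3.12% held GAAANGAAA and 6.4% held either. TTCNNNGAA, the gamma-activated sequence of interferon gamma targets, had 1 match in OAS1 and 0 in OAS3, against 7.66% of all windows. The forkhead motif TGTTTAC, a form of the FOXA site, had 0 matches in both, against 3.42% of all windows, and TATAAA had 0 in both, against 11.5%. A match describes letters in a window and not a bound site.

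All 4 members had far higher FPKM in the induced column than in the uninduced column, and OASL alone rose by the interval criterion. OAS1, the smallest synthetase, was at 0.748 FPKM uninduced (bounds 0 and 4.88) and 228 FPKM induced (bounds 0 and 617). This was the lowest member before and the highest after induction, a ratio of 305 and a difference of 7.04 on the log2(FPKM + 1) scale. OAS2, the synthetase of middle size, was at 2.97 FPKM uninduced (bounds 0 and 9.66) and 199.7 FPKM induced (bounds 0 and 554). The ratio was 67.3, and the log2 difference was 5.66. OAS3, the largest synthetase and the one known to respond best to long double-stranded RNA, was at 7.67 FPKM uninduced (bounds 0 and 16.9) and 162 FPKM induced (bounds 0 and 419). It was the highest member before induction and had the smallest ratio, 21.2, with a log2 difference of 4.24. OASL, the member without synthetase activity, rose from 1.02 FPKM (bounds 0 and 2.27) to 69.9 FPKM (bounds 30.7 and 109). Its ratio was 68.6, or 13.5 between the nearest bounds, and its log2 difference was 5.13.

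**Figure D1:**
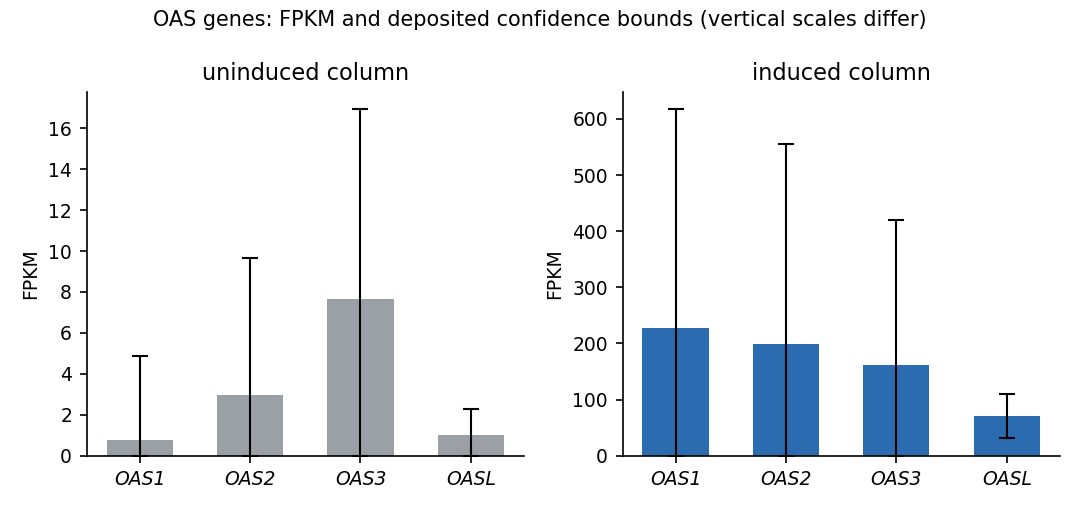
FPKM of the 4 OAS genes in the uninduced (left) and induced (right) columns, with vertical scales that differ between the panels; bars are the deposited FPKM and lines run from the deposited lower to the deposited upper bound. The lower bound is 0 for every gene except OASL in the induced column, where it is 30.7 FPKM.

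The other 3 members had overlapping intervals because the lower bound of each was 0 in the induced column. The share of kept genes that rose was 0.726%, and the share at least 2-fold higher on the log2(FPKM + 1) scale was 9.2%, beside 1 and 4 of the 4 members. Since the members were chosen on this contrast, nothing is read from these counts. By the size of the log2 difference, OAS1 took rank 3, OAS2 rank 12, OASL rank 14 and OAS3 rank 31 of the 14319 kept genes, whose median difference was 0.05. OAS1 passed the filter of 1 FPKM through the induced column alone, while the other 3 members passed it in both. In these bulk samples a higher share of cells expressing a gene and more of its RNA per cell cannot be told apart.

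**Figure D2:**
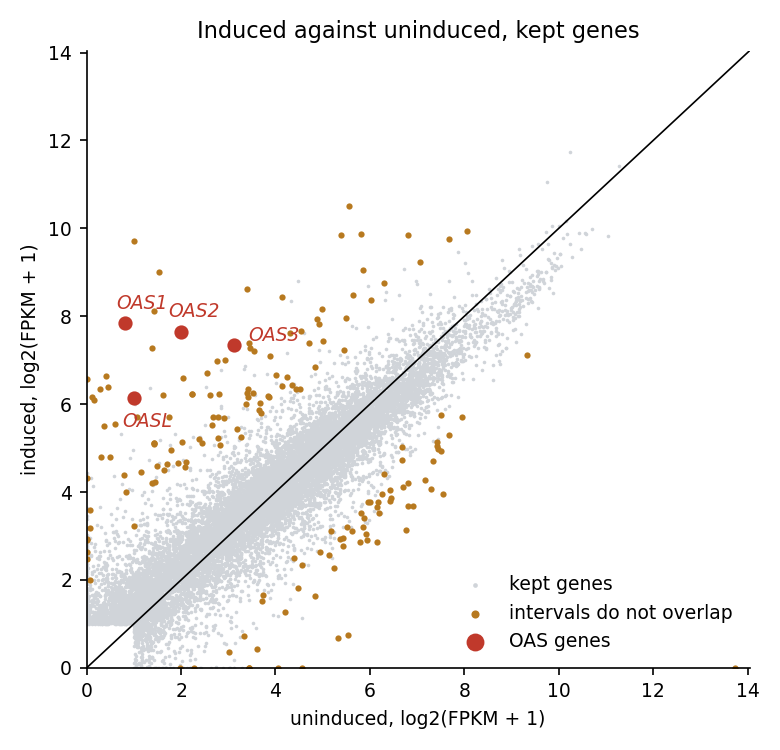
Each point is 1 of 14319 kept genes, with log2(FPKM + 1) in the uninduced column on the horizontal axis and in the induced column on the vertical axis; the line marks equal values. Ochre points are the genes whose intervals do not overlap, 104 above and 65 below the line. The 4 OAS genes (red) lie at the upper left, above the line, and OAS1 at 228 FPKM induced is the highest of the 4.

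The order of the levels turned over between the columns. FPKM is scaled to length, so the members can be ordered within a column. Uninduced, the order was OAS3, OAS2, OASL and OAS1, and the highest was 10.3 times the lowest. Induced, the order was OAS1, OAS2, OAS3 and OASL, and the highest was 3.27 times the lowest. The synthetases of the cluster thus ran in opposite orders before and after induction. OAS3 made up 61.8% of the summed FPKM of the 4 genes uninduced and 24.6% induced, while OAS1 went from 6.03% to 34.6%. The sum was 12.4 FPKM uninduced and 660 FPKM induced. All 6 pairs of members had overlapping intervals in the uninduced column and all 6 in the induced column, so no neighbours in either order differed beyond their bounds. Set among the kept genes of its column, OAS3 lay above 37.0% of them uninduced and OAS1 above 5.75%. Induced, OAS1, OAS2 and OAS3 lay above 98.1%, 97.7% and 96.9% of the kept genes, and OASL above 89.4%.

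The widths of the intervals set the cluster apart from OASL. In the induced column the upper bound lay 170% above the FPKM for OAS1, 178% for OAS2 and 159% for OAS3, against 56.1% for OASL. Among the 2336 genes with well-formed bounds at 50 FPKM or more in that column, the median was 67.2%. OAS2, OAS1 and OAS3 had the 37th, 47th and 62nd widest intervals of these genes, and OASL was narrower than most, with 14.5% of the genes narrower still. The 3 wide members are those that share a locus in the table. Over the same genes, the median was 77.1% for 996 genes whose locus is shared with another kept gene and 62.1% for 1340 whose locus is not. The lower bound was 0 for 22.8% of the former and 2.91% of the latter. OAS1, OAS2 and OAS3 had 11, 6 and 7 start sites in the table and OASL had 3. The median width was 61.3% for 317 genes with 1 to 3 start sites, 65.4% for 1138 with 4 to 10 and 71.2% for 881 with more. The share with a lower bound of 0 did not follow this order, at 14.2%, 8.70% and 13.8%. The part of the shared locus and of the start sites in the width for the cluster was not tested.

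**Figure D3:**
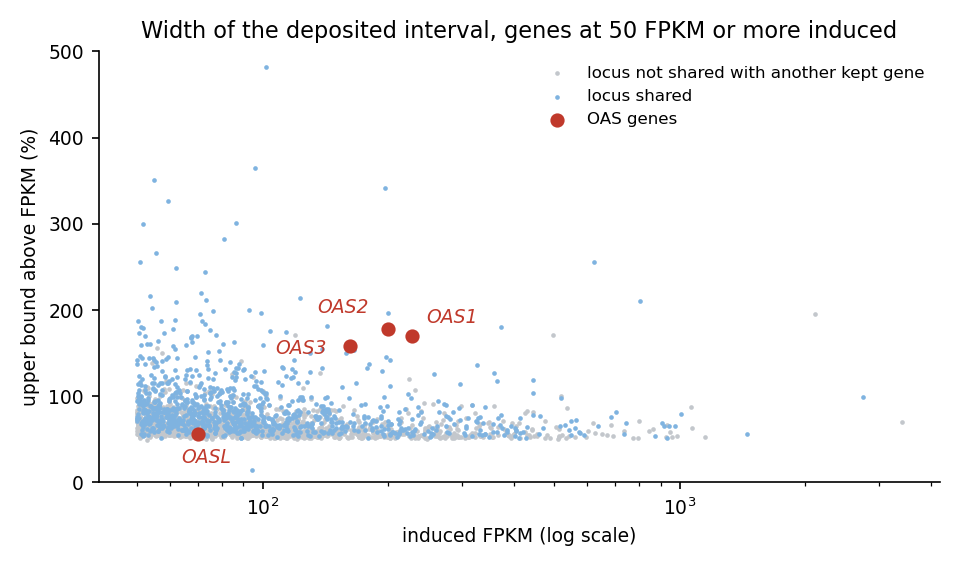
Genes at 50 FPKM or more in the induced column, with induced FPKM on a log axis and, on the vertical axis, how far the deposited upper bound lies above the FPKM in percent; blue points share their locus with another kept gene. OAS1, OAS2 and OAS3 lie at 159% to 178%, and OASL lies at 56.1%, below the median of 67.2%.

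The genes most like each member were the 3 nearest kept genes by distance over the 2 columns on the log2(FPKM + 1) scale, a measure that rests on 2 values per gene. For OAS1 they were MX1, IFI44L and OAS2, at distances of 0.69, 0.81 and 1.20. MX1, an antiviral GTPase, was at 1.70 FPKM uninduced and 275 FPKM induced. For OAS2 they were IFI44L, MX1 and XAF1, a promoter of apoptosis, the last at 5.78 and 125 FPKM. OAS3 had the closest match, IFIT2, an RNA-binding antiviral protein, at a distance of 0.12, with 8.36 FPKM uninduced and 158 FPKM induced. The intervals of IFIT2 overlapped like those of OAS3, with an induced lower bound of 0. HLA-F, a class I histocompatibility gene, and AKAP12, a kinase scaffold, followed at 0.33 and 0.34. For OASL they were CD36, a fatty acid receptor, at 0.14, IFI30, a lysosomal thiol reductase, at 0.39, and ISG20, an antiviral exonuclease, at 0.45. Of the 10 distinct genes so named, OAS2 among them, 6 rose, beside 0.726% of all kept genes. The genes were picked by the same 2 columns that give the call, so nothing is read from this count.

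Genes around the OAS loci had smaller differences than the members. Within 500000 bases of the cluster, 9 of 22 rows were kept, 0 of them rose or fell, and their log2 differences ran from -1.01 to 1.80 with a median of 0.27. The nearest kept genes were DDX54, an RNA helicase, 132106 bases after the cluster at 58.8 and 34.6 FPKM, and the pair PTPN11 and RPL6, 396864 bases before it. PTPN11, which encodes the phosphatase SHP2, was at 66.6 and 34.3 FPKM, and RPL6, a protein of the large ribosomal subunit, was at 601 and 298 FPKM. Around OASL 15 of 37 rows were kept, 0 rose or fell, and the differences ran from -1.02 to 1.29 with a median of -0.20. P2RX4, an ATP-gated channel, lay 170614 bases after OASL at 3.07 and 8.93 FPKM with overlapping intervals. All 4 members had larger differences than the highest of these 24 neighbours, SDSL, a serine dehydratase relative at 3.35 and 14.1 FPKM. Since the members were chosen on this contrast, nothing is read from their being larger. Of all kept genes 0.726% rose and 0.454% fell, so 0 among 24 neighbours is near the share over all genes.

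**Figure D4:**
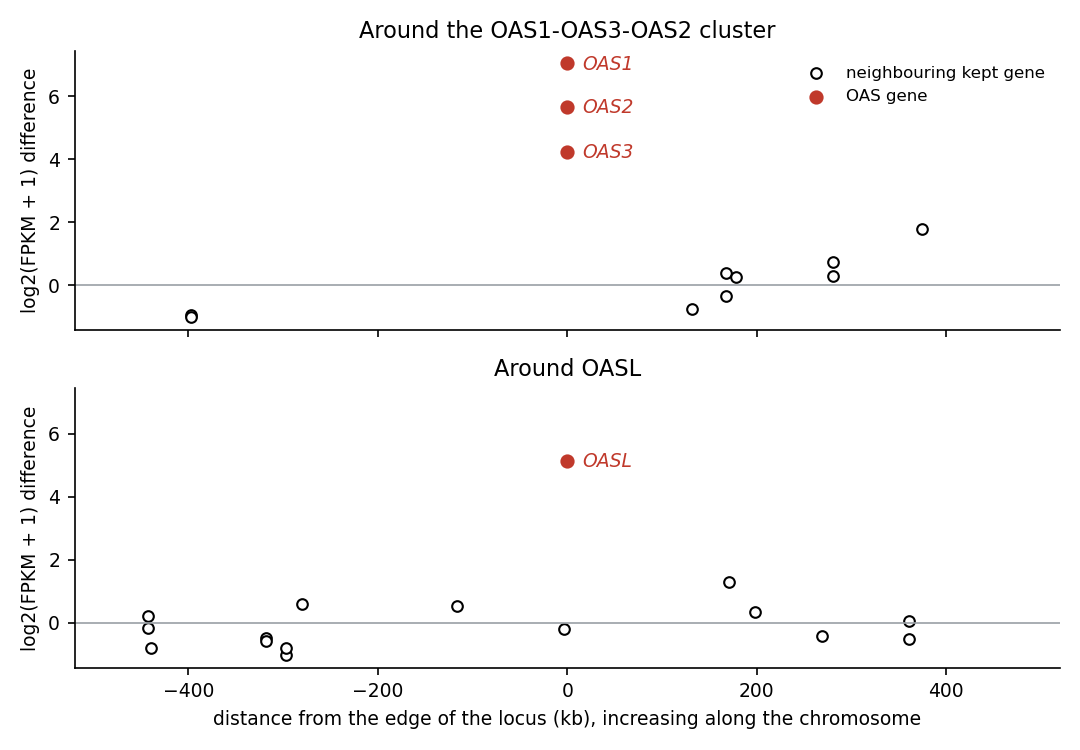
Difference of log2(FPKM + 1), induced minus uninduced, for kept genes within 500000 bases of the OAS1-OAS3-OAS2 cluster (top) and of OASL (bottom), by distance from the edge of the locus in kb; OAS genes are drawn at 0. The neighbours lie between -1.02 and 1.80 and the OAS genes between 4.24 and 7.04.

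The partners of the OAS enzymes in the 2-5A pathway had 0 of 5 genes that rose or fell, and a median log2 difference of 0.28. Beside this and the lists below, 0.726% of all kept genes rose, 0.454% fell and 9.2% were at least 2-fold higher. A count of 0 that rose or fell in a short list is near these shares. ABCE1, a ribosome recycling factor, was at 85.3 FPKM uninduced and 51.3 FPKM induced. PDE12, a phosphodiesterase that degrades 2-5A, was at 13.5 and 10.8 FPKM. AKAP7, whose long form has the same activity, was at 3.91 and 4.96 FPKM. ENPP1, a surface phosphodiesterase that also cleaves 2-5A, was at 35.8 FPKM (bounds 14.0 and 57.7) and 99.5 FPKM (bounds 34.3 and 165), the largest difference of the list at 1.45.

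Among 14 genes of double-stranded RNA recognition, 4 rose, 0 fell and 7 were at least 2-fold higher, with a median log2 difference of 0.98. The genes that rose were the RNA helicase sensors DDX58, which encodes RIG-I, IFIH1 and DHX58, and the endosomal receptor TLR3. DDX58, the sensor that OASL assists, rose from 6.59 to 128 FPKM, or 4.55-fold between the nearest bounds. IFIH1, or MDA5, rose from 3.13 to 96.4 FPKM, DHX58, or LGP2, from 5.42 to 51.7 FPKM, and TLR3 from 0.725 to 19.9 FPKM. EIF2AK2, the kinase PKR that halts translation on double-stranded RNA, was at 27.4 and 101 FPKM with overlapping intervals. ADAR, which edits double-stranded RNA and so limits its sensing, was at 58.3 and 149 FPKM, also overlapping. TRIM25, a ubiquitin ligase of the RIG-I pathway, was at 25.0 and 69.2 FPKM. Among the adaptors and cofactors, MAVS, the adaptor of RIG-I and MDA5, was at 25.9 and 13.9 FPKM, the lowest log2 difference of the list at -0.86, and its intervals overlapped. TMEM173, or STING, was at 61.9 and 63.4 FPKM, PRKRA at 34.7 and 33.6 FPKM, and TARBP2 at 29.1 and 19.4 FPKM. MB21D1, which encodes cGAS, the relative that OASL dampens, was at 7.37 and 7.40 FPKM.

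Most genes of the signalling chain that drives OAS genes were expressed in both columns. Of 16 listed genes 15 were kept, all but IFNLR1, a type III interferon receptor chain listed at 0 uninduced and at 0.0958 FPKM induced. Of the kept genes, 2 rose, 0 fell and 6 were at least 2-fold higher, with a median of 0.50. STAT2 rose from 31.1 FPKM (bounds 8.72 and 53.5) to 172 FPKM (65.7 and 279), and the transcription factor IRF7 from 6.02 to 74.0 FPKM. The intervals of IRF9, the partner of STAT2, overlapped at 29.95 and 123 FPKM. The receptor chains were closer to equal, with IFNAR1 at 36.0 and 42.4 FPKM and IFNGR2 at 68.2 and 97.1 FPKM. The kinases JAK1, at 43.1 and 41.7 FPKM, and TYK2, at 40.5 and 36.7 FPKM, were also near equal, as was IRF3, at 48.8 and 43.3 FPKM. The third listed kinase, JAK2, was at 6.87 FPKM (bounds 1.69 and 12.1) and 24.9 FPKM (bounds 7.18 and 42.6), a log2 difference of 1.72 with overlapping intervals.

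The interferon genes themselves were at or near 0. Of 21 ligand genes 16 were listed at 0 in both columns, 2 were kept and 0 rose or fell. IFNB1, the interferon beta gene, was listed at 0 uninduced and at 1.17 FPKM induced (bounds 0 and 2.67). IFNE, an epithelial interferon, was at 1.502 and 0.861 FPKM. The 3 others above 0 were seen in the induced column alone, IFNA1 at 0.198 FPKM and IFNW1 and IFNL1 at no more than 0.0423 FPKM. Genes that restrain the response had 1 of 6 kept members that rose and a median of 0.29. This was USP18, which removes ISG15 and blocks the interferon receptor, from 3.72 to 73.8 FPKM. The phosphatases PTPN1, at 31.4 and 42.9 FPKM, and PTPN2, at 20.2 and 19.0 FPKM, had overlapping intervals, as did SOCS3, at 16.6 and 18.4 FPKM, and PIAS1, at 19.1 and 32.2 FPKM. SOCS1, a feedback inhibitor of JAK kinases, was at 10.5 and 5.68 FPKM, and PTPN6, a leukocyte phosphatase, was listed at 0 in both.

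**Figure D5:**
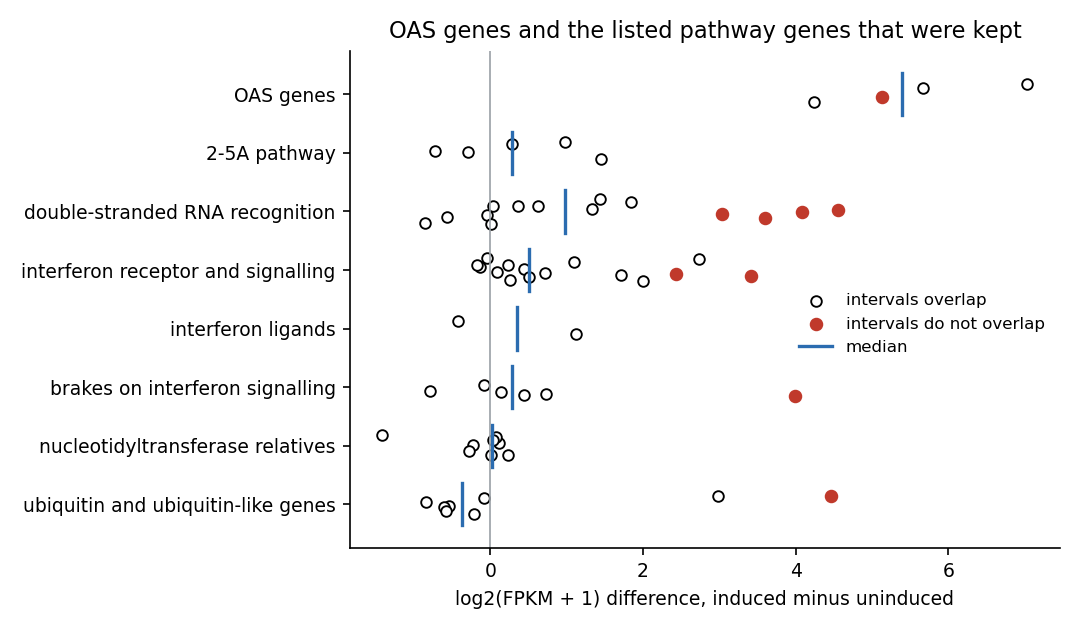
Difference of log2(FPKM + 1), induced minus uninduced, for the OAS genes and the kept genes of 7 lists; 1 point is 1 gene, filled where its intervals do not overlap, and bars are medians. The OAS median is 5.40, and the list medians run from -0.37 for ubiquitin and ubiquitin-like genes to 0.98 for double-stranded RNA recognition.

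Of the listed genes whose proteins share a fold with the OAS catalytic core or with the OASL tail, ISG15 alone rose. The catalytic core of OAS enzymes belongs to the nucleotidyltransferases, with cGAS and the poly(A) polymerases. Of 8 such relatives 0 rose or fell, which is near the shares of all kept genes, 0.726% and 0.454%. At least 2-fold higher were 0 and at least 2-fold lower was 1, beside 9.2% and 6.03% of all kept genes. The median log2 difference was 0.02. PAPOLA, the main nuclear poly(A) polymerase, was at 87.4 and 71.7 FPKM, and PAPD4 at 21.8 and 25.9 FPKM. MB21D2, a cGAS relative, was at 18.8 and 6.45 FPKM with overlapping intervals. Of 8 ubiquitin and ubiquitin-like genes, the fold of the OASL tail, ISG15 alone rose, from 40.9 FPKM (bounds 8.21 and 73.7) to 928 FPKM (bounds 442 and 1413), and the list median was -0.37. UBD, or FAT10, which like ISG15 has tandem ubiquitin-like domains, was listed at 0 uninduced and at 6.90 FPKM induced with a lower bound of 0. Of the genes for ubiquitin itself, UBB was at 446 and 386 FPKM and RPS27A at 546 and 306 FPKM, both with overlapping intervals.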

How the data were processed

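RNA-seq was made from 2 uninduced and 2 induced samples with column-purified RNA and a non-stranded TruSeq kit, per the labels' protocols. The submitters' processing notes name TopHat and hg19, and the quantifier is not given in the sources used here. Per the file headers, the deposited values are FPKM with 2 bounds, 1 column per group. Group names in the headers tied columns to groups, and 3 value columns of a condition not analysed here were left out. Total reads are unknown. Among 2973 genes with 1 start site and values between 0 and 1 FPKM, induced over uninduced FPKM was most often 0.86 (131 genes within 0.01), which would put the induced depth at 1.16 times the uninduced.

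Genes at 1 FPKM or more in at least 1 column were kept, differences are on the log2(FPKM + 1) scale, which understates those of low genes, and 3 kept genes whose FPKM lies outside its own bounds stayed uncalled. Of several rows for a symbol, that of the highest mean was taken. Locus starts were raised by 1, since end minus start in the table equals the GENCODE 29 gene length for 18545 of 22447 genes with a locus of their own. The members, lists and rules were chosen with earlier results of these data known. The text names all members and 2-5A genes, each list's genes that rose or fell and up to 6 others with the highest mean, and the nearest kept neighbours. IFNA1, IFNW1, IFNL1, SDSL, SOCS1, PTPN6, MB21D1, MB21D2, PAPD4, TYK2, JAK2, MAVS, IFNLR1 and UBD were named, where outside this rule, after their values had been seen. The values of some of these genes are left out of the text. The planned comparison of protein sequences was not run. The code of the criterion was run on simulated data with intervals much narrower than the deposited ones. In the induced column, the median upper bound lies 67.2% above the FPKM at 50 FPKM or more. How the criterion performs with intervals of the deposited width was not tested. Python 3.11.15, numpy 2.4.6, pandas 2.3.3 and matplotlib 3.10.9 were used.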

Additional observations from a re-analysis of the deposited data

How the results depend on the processing

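The differences of the 4 members stayed above 0 and kept their side of the interval criterion under 6 other settings, fixed with the design: a pseudocount of 0.1 FPKM, no filter, a mean of at least 5 FPKM, columns scaled to the same sum, quantile normalization, and an interval of the difference that excludes 0. OASL had separate intervals under each of these and OAS1, OAS2 and OAS3 under none. The pseudocount and the filters do not enter this call, and scaling leaves a lower bound of 0 at 0. For the interval of the difference, upper bounds 159% to 178% above the induced FPKM exceed any difference between the columns. The calls of OAS1, OAS2 and OAS3 could therefore not change, and nothing is read from their staying the same. The log2 difference ranged from 7.04 to 8.07 for OAS1, 5.63 to 6.03 for OAS2, 4.24 to 4.43 for OAS3 and 5.07 to 5.97 for OASL. In all, 99 of 102 recomputed values kept their direction and call or, for counts, stayed within 1.5 times the reported one. The 99 include values that a setting could not change. The exceptions are counts over all genes: 712 at least 2-fold higher with a mean of at least 5 FPKM, by construction from fewer genes, and 180 that rose and 159 that fell with the interval of the difference, which is a looser criterion. With equal sums the median over all kept genes was 0.24 in place of 0.05, against which the members stand at 4.43 or more. Of the genes at least 2-fold different, 60.4% were higher as deposited, 74.3% with equal sums, 51.9% with a mean of at least 5 FPKM and 50.6% after quantile normalization. No paired analysis was possible because each group has a single column of values, and for the same reason no sample could be left out.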

Other observations

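OAS1, OAS2 and OAS3 belong to a small set of genes with large differences whose intervals overlap. Of 40 kept genes with a log2 difference of at least 4, a limit chosen after the values had been seen, 28 rose and 12 had overlapping intervals. The induced lower bound was 0 for 11 of these 12. Overlap at such differences needs a low induced lower bound or a high uninduced upper bound, so nothing is read from that count. Of the 12, 11 share their locus in the table with another kept gene, against 9 of the 28 that rose. Among the genes with well-formed bounds at 50 FPKM or more induced, 996 of 2336 share theirs. Beside the 3 OAS genes the 12 included the neighbouring interferon-stimulated genes IFIT1 (21.3 and 445 FPKM), IFIT2 (8.36 and 158 FPKM) and IFIT3 (19.0 and 326 FPKM). CMPK2, a mitochondrial nucleotide kinase (0.0635 and 19.0 FPKM), was also among them. The exception with a locus of its own was CD36, at 1.03 and 63.3 FPKM, whose induced lower bound was 0.412. A count of genes that rose leaves out these 12 genes, at induced levels up to 445 FPKM. The part of the shared locus in their widths was not tested. The counts are of genes and not of loci, and OAS1, OAS2 and OAS3 share 1 locus, so the genes are not separate cases.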
